A study of Mus musculus with 9 samples.

Results

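Interferon-stimulated and nucleic acid sensing genes were followed in the cells of mouse ovarian cancer ascites. The set is a list of 47 genes fixed by name, made with earlier results of these data known. Of these, 46 had a row among the 27998 genes of the single-cell matrix, 44 had at least 1 UMI in the kept cells, and Mx2 had no row. The library came from 1 sample of ascites, the fluid that gathers in the abdominal cavity, taken from wild-type B6 mice (genotype label B6_WT) carrying ID8_def29_vegf cells. ID8-Def29/Vegf is an ovarian cancer line derived from mouse ovarian surface epithelium and changed to make a defensin and the growth factor Vegf. No treatment, age or number of mice is given for this library. The series also has 8 bulk libraries from ID8-Def29/Vegf cells in culture, 4 with vehicle and 4 with the iron chelator deferiprone for 12 h. None of the 8 columns of the bulk table could be matched by name to a sample, so the members were not analysed in them.

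Cells sense foreign or misplaced nucleic acids through a small set of receptors. The enzyme cGAS and its partner STING respond to DNA in the cytosol, RIG-I and MDA5 respond to viral RNA and signal through MAVS, and ZBP1 binds left-handed nucleic acids. These routes meet at the kinase TBK1 and the factors IRF3 and IRF7, which switch on the interferon beta gene. Secreted type I interferon binds a receptor made of IFNAR1 and IFNAR2, and STAT2 and IRF9, as parts of a complex, then bind the interferon-stimulated response element of its target genes. The products of these targets block viral entry, translation and budding, and many of them are also sensors, so that the pathway feeds back on itself. Macrophages and plasmacytoid dendritic cells are known for strong interferon responses, and tumour cells often carry a weakened sensing pathway.

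A barcode was kept as a cell from 500 UMIs and 200 genes upward and with mitochondrial UMIs at 15% or less, and 6442 of the 737280 barcodes passed. Tumour-like cells (3660, 56.8% of the kept cells) had at least 3 UMIs of Krt8, Krt18, Krt19, Wt1 and Upk3b together and at most 1 of the complement genes C1qa, C1qb and C1qc. Macrophages (1076, 16.7%) had at least 3 UMIs of the C1q genes and at most 1 of the keratin set. Levels are counts per 1000000 UMIs of a class (CPM), from 19994488 UMIs in tumour-like cells and 1905866 in macrophages. The median depth was 5007 UMIs per tumour-like cell and 1639.5 per macrophage. The macrophage markers outside the gate were present, with Csf1r at 369 CPM, Adgre1 at 71.4 and Lyz2 at 15318. Among the markers outside the tumour-like gate, Upk1b (41.1 CPM) and Lgals2 (458 CPM) were present, Epcam stood at 1.20 CPM and Cdh1 at 0 UMIs, so this class carried epithelial and mesothelial genes with little or none of these epithelial adhesion genes. Among natural killer cell markers, Ncr1 and Eomes had 0 UMIs in the kept cells, Klrb1c 1, Gzma 4 and Klre1 6. With 1 library there was no test, and all intervals are 95% intervals that cover counting error only.

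The promoters of members were searched for 2 sequence patterns of the pathway. RefSeq gave a promoter (GRCm38.p6, from 250 bases before to 50 bases after the start of the gene) for 36 members. The core of the interferon-stimulated response element was searched as GAAA, NN and GAAA in a row, where N is any base, on both strands, and was found in 16 of the 36 (44.4%), against 3.99% of all 27025 genes with a promoter and 3.44% of the 32851 promoters. The gamma-activated site, searched as TTCNNNGAA, which reads the same on both strands in its fixed letters, was found in 9 (25%), against 9.55% of all genes. The 2 patterns can overlap. These matches describe letters in a window and were not tested as binding sites. The list names interferon-stimulated genes, so a higher share than over all genes is not a result of these data.

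The windows below show the response element where it lies before the start of members that the results turn on or that define the pathway. Capitals mark a match to this core or its reverse complement, with overlapping matches joined. Further separate matches of a promoter are not marked. Each window is printed along the strand of its gene, 5′ to 3′.
Bst2, chr8:71537572-71537617, minus strand: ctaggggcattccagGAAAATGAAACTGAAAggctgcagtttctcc
Isg15, chr4:156200860-156200911, minus strand: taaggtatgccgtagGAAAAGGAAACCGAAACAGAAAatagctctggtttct
Oas1a, chr5:120907526-120907560, minus strand: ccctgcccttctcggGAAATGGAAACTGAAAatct
Ifit1, chr19:34640770-34640809, plus strand: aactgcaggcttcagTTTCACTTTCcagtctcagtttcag
Ifit3, chr19:34583358-34583397, plus strand: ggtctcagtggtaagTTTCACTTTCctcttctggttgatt
Ifit3b, chr19:34607754-34607793, plus strand: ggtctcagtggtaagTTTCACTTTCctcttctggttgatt
Rsad2, chr12:26456548-26456587, minus strand: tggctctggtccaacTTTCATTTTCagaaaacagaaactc
Gbp2, chr3:142620589-142620628, plus strand: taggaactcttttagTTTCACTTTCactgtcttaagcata
Isg15 holds 3 overlapping matches, and Bst2 and Oas1a hold 2 each. Ifit1, Ifit3 and Ifit3b each hold a further match, apart from that in capitals. That of Ifit1, 85 to 76 bases before the start, begins in the last bases of the window shown. The windows of Ifit3 and Ifit3b are identical, as these are near copies of each other, and their reads may be split between them. The promoters of Oasl2, Mavs and Irf3, which stood higher in tumour-like cells, held no match in their windows. A match was likewise not found for Irf7, Irf9 and Xaf1, which stood higher in macrophages.

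The comparison of macrophages with tumour-like cells asks which compartment of the ascites carried the pathway. Most members whose interval excluded 1 stood higher in macrophages. Among members with at least 50 UMIs, the largest ratios were those of Zbp1, Ifitm3, Bst2 and Rtp4, while Oasl2, Mavs, Irf3 and Ifi27 stood higher in tumour-like cells. Of the 44 members with a UMI, 29 had a macrophage over tumour-like ratio whose interval lay above 1, 4 lay below 1, and 11 included 1. Over all 16253 genes with a UMI in these classes, 16.1% lay above 1 and 29.6% below. A level of at least 5 CPM averaged over the classes was reached by 24 members, of which 13 were at least 2-fold higher in macrophages (54.2%) and 2 at least 2-fold higher in tumour-like cells (8.33%). Among all 8478 genes at that level, the shares were 15.8% and 30.5%. The median log2 ratio, with 1 CPM added to each level, was 0.95 over the 24 members and -0.37 over all these genes. With ratios divided by the median ratio of all these genes (a log2 ratio of -0.39 without added CPM), 18 members were at least 2-fold higher in macrophages and 1, Oasl2, in tumour-like cells. Of the 24, 6 had a tumour-like level under 5 CPM and passed through their macrophage level, so they had to differ, and the counts over the 24 are given as a description.

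**Figure D1:**
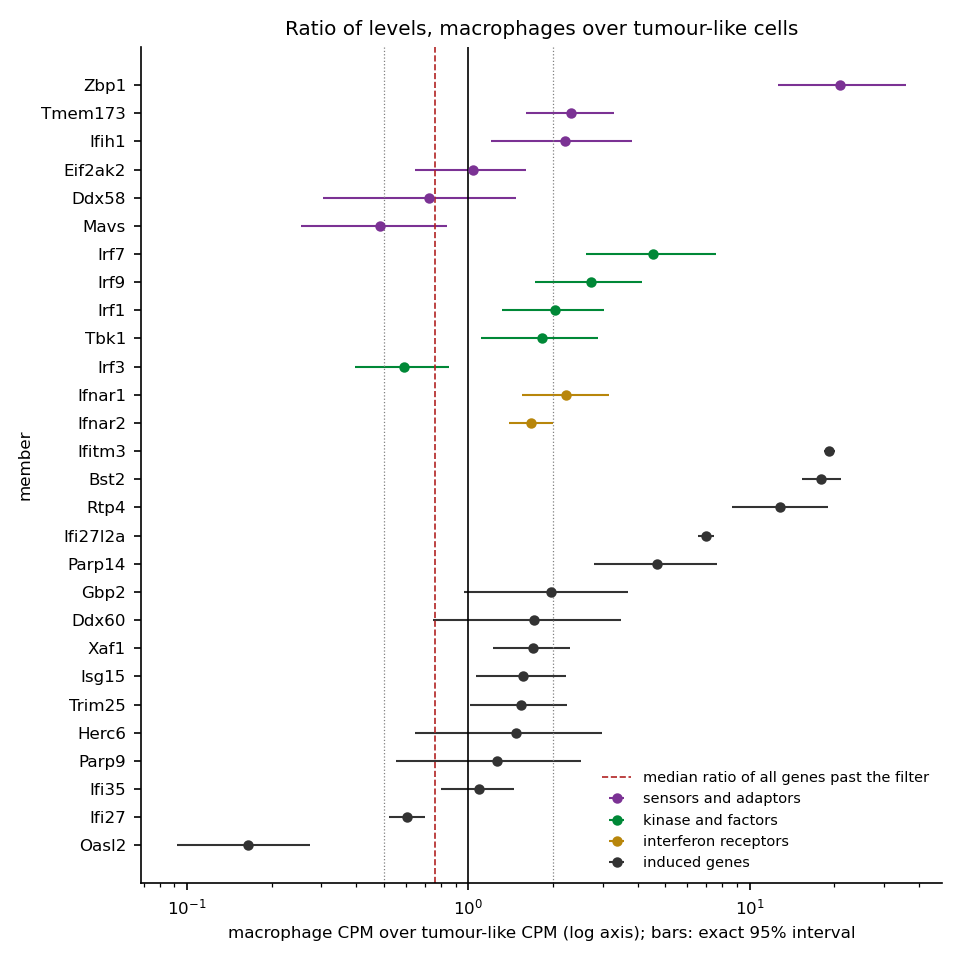
Ratio of the macrophage level to the tumour-like level (log axis) for the 28 members with at least 50 UMIs in the classes together, grouped by role, with points for the ratio and bars for the exact 95% interval. The solid line is a ratio of 1, dotted lines mark 2-fold in each direction and the dashed line is the median ratio of all genes past the filter; Ifitm3, Zbp1, Bst2 and Rtp4 lie farthest to the right and Oasl2 farthest to the left.

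Among the sensors, Zbp1, which detects left-handed nucleic acids and can trigger cell death, stood at 1.20 CPM (0.769 to 1.79) in tumour-like cells and 25.2 CPM (18.6 to 33.4) in macrophages. Its ratio was 20.98 (12.6 to 35.8). Free RNA, estimated without Cd74 as described below, would give 0.199 CPM in tumour-like cells, and more with Cd74. Tmem173, which encodes STING, stood at 9.05 and 20.99 CPM, a ratio of 2.32 (1.60 to 3.28). The levels of Zbp1 and Tmem173 did not overlap between the classes within their intervals. Mb21d1, the older symbol of cGAS, the enzyme upstream of STING, had 16 UMIs in tumour-like cells and 6 in macrophages, or 0.800 and 3.15 CPM.

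Among the RNA sensors, Ifih1, which encodes MDA5, stood at 3.80 CPM in tumour-like cells and 8.395 in macrophages, a ratio of 2.21 (1.20 to 3.82). With every cell thinned to 1000 UMIs its ratio was 1.12, from 5 macrophages with a UMI. Ddx58, which encodes RIG-I, stood at 5.80 and 4.20 CPM, a ratio of 0.724 with an interval of 0.305 to 1.47 that included 1. The ratio of Ddx58 lay between 0.3455 (cells thinned to 1000 UMIs) and 1.12 (cells weighted equally) over the alternatives. After thinning, only 2 macrophages had a UMI of Ddx58. Eif2ak2, which encodes the RNA-activated kinase PKR, stood at 11.6 and 12.1 CPM, a ratio of 1.04 (0.646 to 1.60). This turned to 0.633 with cells thinned to 1000 UMIs, from 8 macrophages with a UMI. Mavs, the adaptor on mitochondria shared by RIG-I and MDA5, went the other way, at 14.1 CPM (282 UMIs) in tumour-like cells and 6.82 CPM (13 UMIs) in macrophages. Tumour-like cells thus held 2.07-fold (1.19 to 3.93) more Mavs. Trex1, the exonuclease that clears cytosolic DNA, had 0 UMIs in all 6442 kept cells, which allows a UMI in up to 0.0466% of such cells and sets no limit on the share that express the gene. In the annotation its exons overlap those of Atrip on the same strand, and reads in such overlaps cannot be assigned by strand.

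The kinase and the factors differed among themselves. Irf7, the factor that amplifies interferon production, stood at 2.55 CPM in tumour-like cells and 11.5 in macrophages, a ratio of 4.53 (2.61 to 7.60). Its ratio was 9.88 with cells thinned to 1000 UMIs, from 5 tumour-like cells and 12 macrophages with a UMI. Irf3, which acts first after sensing and needs no induction, stood higher in tumour-like cells, at 26.6 CPM (24.4 to 29.0) against 15.7 (10.6 to 22.5), or 1.69-fold (1.17 to 2.53). Irf3 and Irf7 thus lay on opposite sides of a ratio of 1.

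The other factors stood higher in macrophages. Irf9, the DNA-binding partner of Stat2, stood at 5.40 and 14.7 CPM, a ratio of 2.72 (1.73 to 4.15). Irf1, an interferon-inducible activator, had levels of 7.50 and 15.2 CPM and a ratio of 2.03 (1.31 to 3.03). Tbk1, the kinase that activates Irf3, stood at 6.30 and 11.5 CPM, a ratio of 1.83 (1.11 to 2.90). Stat2, the partner of Irf9, had 32 UMIs in tumour-like cells and 9 in macrophages, or 1.60 and 4.72 CPM. Exons of Irf9 overlap Rnf31 on the same strand, and those of Irf3 and Irf7 overlap Bcl2l12 and Phrf1 on the opposite strand. How the counting treated such reads is not given in the sources used here.

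The interferon beta gene Ifnb1 had 0 UMIs in the 6442 kept cells, with the same limit on cells with a UMI and none on cells that express it. The receptor genes were found in both classes. Ifnar1 stood at 9.40 CPM in tumour-like cells and 20.99 in macrophages, a ratio of 2.23 (1.55 to 3.15). Thinned to 1000 UMIs its ratio was 3.65, from 25 tumour-like cells and 23 macrophages with a UMI. Ifnar2 stood at 44.2 (41.3 to 47.2) and 74.0 CPM (62.3 to 87.3), a ratio of 1.67 (1.39 to 2.001), and its exons overlap the predicted gene Gm21970 on the same strand. Receptor transcripts were thus seen in both classes, while Ifnb1 was not detectable at this depth. Other type I interferon genes are not among the members, and their levels are not given here.

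Ifitm3, which blocks the entry of viruses through endosomes, had the most UMIs of any member in macrophages. Its level was 146 CPM (141 to 152) in tumour-like cells and 2808 CPM (2733 to 2884) in macrophages, a ratio of 19.2 (18.3 to 20.1). Thinned to 1000 UMIs, 87.5% (85.2 to 89.5) of 950 macrophages and 14.0% (12.9 to 15.2) of 3610 tumour-like cells had a UMI. Without thinning the shares were 92.4% and 43.5%, and free RNA alone would give a UMI to 13.2% of tumour-like cells. Free RNA would make up 26.2 of the 146 CPM in tumour-like cells. Both free RNA values use droplets of 100 to 200 UMIs and an estimate without Cd74, at 8.20% of tumour-like UMIs. With Cd74 the estimate was 29.6%, so both values would be larger. Bst2, the tether that holds budding virions at the cell surface, stood at 12.55 CPM (11.1 to 14.2) and 226 CPM (205 to 248), a ratio of 17.97 (15.4 to 21.1). After thinning, Bst2 had a UMI in 17.5% of macrophages and 1.33% of tumour-like cells, against 30.3% and 5.96% without.

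Rtp4, an interferon-induced gene that encodes a chaperone of receptor transport, stood at 2.50 CPM in tumour-like cells and 32.0 in macrophages, a ratio of 12.8 (8.66 to 19.0). Parp14, an ADP-ribosyltransferase of macrophage activation, stood at 2.80 and 13.1 CPM, a ratio of 4.68 (2.80 to 7.63). Oas1a, a synthetase that activates the RNA-cutting enzyme RNase L, had 2 UMIs in tumour-like cells and 31 in macrophages, or 0.10 and 16.3 CPM. Subtraction of the estimated free RNA raised several of these ratios. With the profile of droplets of 100 to 200 UMIs and all 6 foreign genes, the ratios were 41.8 for Ifitm3, 35.0 for Bst2, 28.0 for Rtp4 and 40.3 for Zbp1, since the subtracted share was large in tumour-like cells. Without the foreign gene Cd74, as for the free RNA levels given beside members, the ratios were 23.4, 21.6, 15.55 and 25.2 in the same order.

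Ifi27 and Ifi27l2a, related genes that lie next to each other on chromosome 12, went in opposite directions. Ifi27 (chr12:103434211-103440239) stood at 162 CPM (157 to 168) in tumour-like cells and 98.6 CPM (85.1 to 114) in macrophages, 1.65-fold (1.42 to 1.92) higher in tumour-like cells. Free RNA would give 19.8 of the 98.6 CPM. Ifi27l2a (chr12:103442167-103443680) stood at 107.5 CPM (103 to 112) and 751 CPM (713 to 791), a ratio of 6.99 (6.53 to 7.48). In macrophages 50.6% of cells had a UMI of Ifi27l2a, and the highest cell held 31 UMIs. The share was 40.2% after thinning, against 10.5% in tumour-like cells.

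Oasl2, a member of the oligoadenylate synthetase family, stood higher in tumour-like cells by more than 2-fold, which no other induced member with at least 50 UMIs did. It had 952 UMIs there, or 47.6 CPM (44.6 to 50.7), and 15 UMIs in macrophages, or 7.87 CPM (4.41 to 13.0). The levels did not overlap, and tumour-like cells were 6.05-fold (3.65 to 10.85) higher. Free RNA would give 1.56 of the 7.87 CPM in macrophages, or 2.91 with the profile of droplets of 1 to 50 UMIs. A UMI of Oasl2 was found in 5.13% (4.43 to 5.90) of thinned tumour-like cells and 0.842% (0.364 to 1.65) of thinned macrophages. Over the 14 alternatives tried for single members, the ratio of macrophages to tumour-like cells lay between 0.108 and 0.217. Its neighbor on chromosome 5, Oasl1, which limits the translation of Irf7, had 10 UMIs in tumour-like cells and 6 in macrophages, or 0.5001 and 3.15 CPM.

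Other induced members with at least 50 UMIs lay closer to a ratio of 1. Isg15, a ubiquitin-like protein attached to other proteins after interferon, stood at 12.1 CPM (242 UMIs) in tumour-like cells and 18.9 CPM (36 UMIs) in macrophages, a ratio of 1.56 (1.07 to 2.22). Xaf1, which opposes inhibitors of apoptosis, stood at 14.9 and 25.2 CPM, a ratio of 1.69 (1.22 to 2.30). Trim25, the ubiquitin ligase that acts on RIG-I, stood at 10.6 and 16.3 CPM, a ratio of 1.53 (1.02 to 2.24). These 3 ratios lay above 1 and below 2.

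For 5 members the interval included 1. Ifi35 stood at 24.6 CPM in tumour-like cells and 26.8 in macrophages (ratio 1.09, 0.799 to 1.45). Gbp2, a GTPase that acts on vacuoles of pathogens, stood at 3.201 and 6.30 CPM (ratio 1.97, 0.966 to 3.68). Ddx60, a helicase, stood at 2.75 and 4.72 CPM (ratio 1.72, 0.746 to 3.50). Herc6, a ligase for Isg15 in mice, stood at 3.201 and 4.72 CPM (ratio 1.48, 0.645 to 2.98), and Parp9 at 3.75 and 4.72 CPM (ratio 1.26, 0.554 to 2.52). With 9 to 12 macrophage UMIs for Gbp2, Ddx60, Herc6 and Parp9, differences inside these intervals were not detectable at this depth.

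**Figure D2:**
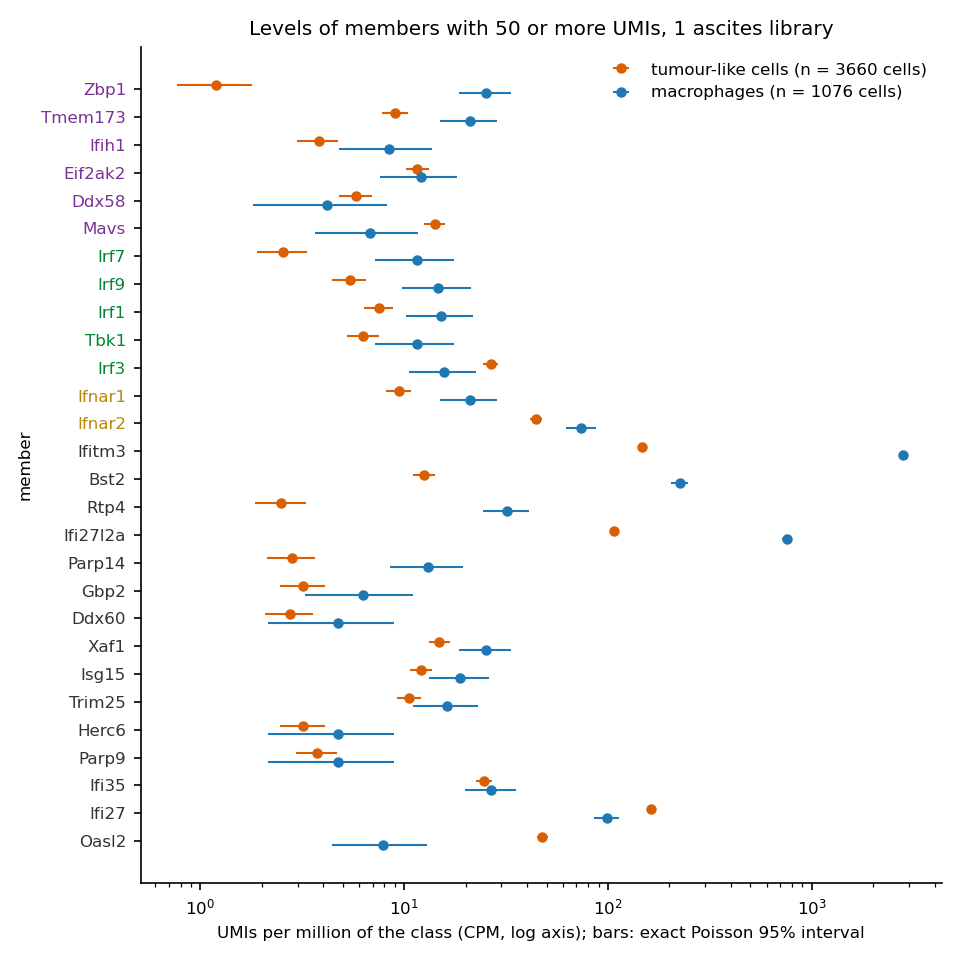
Levels in CPM (log axis) of the 28 members with at least 50 UMIs, in tumour-like cells and macrophages, with points for the level and bars for the exact Poisson 95% interval. Gene names are colored by role as in the plot of ratios; Ifitm3 is the rightmost macrophage point at 2808 CPM and Oasl2 the member with the widest gap toward tumour-like cells.

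The 18 members with fewer than 50 UMIs, a limit that chose them, held 139 UMIs in tumour-like cells and 98 in macrophages, or 6.95 and 51.4 CPM together. Of the 18, 2 had no UMI and so no ratio, the interval lay above 1 for 12, and it lay below 1 for 0. Over all genes with a UMI these shares were the 16.1% and 29.6% given above, and nothing is read from the count. Rsad2, which encodes viperin, had 5 UMIs in tumour-like cells and 14 in macrophages. Its genomic neighbor Cmpk2, a nucleotide kinase, had 9 and 5.

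The Ifit genes, whose products bind foreign RNA caps and block its translation, had few UMIs. Ifit1 had 8 UMIs in tumour-like cells and 1 in macrophages, Ifit2 had 30 and 2, Ifit3 had 3 and 4, and Ifit3b had 4 and 0. Oas2 had 2 and 7, and Oas3 had 1 and 4. Mx1, a GTPase against influenza viruses, and Usp18, which removes Isg15 from proteins and dampens the receptor, each had 0 UMIs in tumour-like cells and 2 in macrophages. Ifi44 had 6 and 0, and Gbp3 had 11 and 5.

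The CPM was also summed over 31 interferon-inducible members, namely the induced members without Trim25 and with Irf7, Zbp1 and Eif2ak2, which are themselves induced by interferon. This sum was 566 in tumour-like cells and 4120 in macrophages, a ratio of 7.28 (7.07 to 7.49). Most of this sum came from Ifitm3, Ifi27l2a and Ifi27. Without these 3 genes, a choice made after the values were seen, the sums were 149.9 and 462 CPM, a ratio of 3.08 (2.86 to 3.33). The size of the summed difference thus rests largely on Ifitm3 and Ifi27l2a, as Ifi27 stood higher in tumour-like cells. Its direction was the same without the 3 genes. Of the CPM left, Bst2 made up 226 of 462 in macrophages and 12.55 of 149.9 in tumour-like cells.

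Few cells held UMIs of several inducible members at once, at a depth that limits such counts. The count was made on cells thinned to 1000 UMIs and on the 27 members of the summed list left after Ifitm3, Ifi27, Ifi27l2a and Bst2 were set aside, a list chosen with values known. No UMI of the 27 was found in 86.5% (85.4 to 87.6) of tumour-like cells and 80.8% (78.2 to 83.3) of macrophages. Different members numbered 2 in 24 of 3610 tumour-like cells and 24 of 950 macrophages, and 3 or more in 3 and 4 cells. The most in any cell was 4, in 1 tumour-like cell. At 1000 UMIs per cell and such low levels, most cells would hold no UMI of the 27 by sampling alone. Whether the same cells express several members was therefore not tested.

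**Figure D3:**
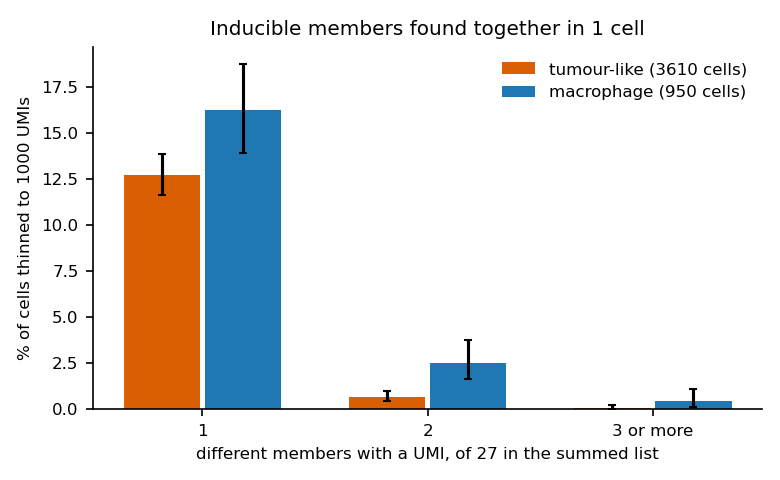
Share of cells, each thinned to 1000 UMIs, with UMIs of 1, 2, or 3 or more different genes of the 27 members of the summed list other than Ifitm3, Ifi27, Ifi27l2a and Bst2, in 3610 tumour-like cells and 950 macrophages, with exact 95% intervals as error bars. Cells with 3 or more made up 0.0831% of tumour-like cells and 0.421% of macrophages.

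Within the tumour-like class, several members stood lower in cycling cells. Cycling cells had at least 2 UMIs of Top2a, Mki67, Birc5 and Ube2c together (242 cells, median 7501 UMIs), and 3145 cells with 0 such UMIs (median 4831) were the comparison. Of the 24 members with at least 50 UMIs, 7 had a ratio whose interval lay below 1, 1 lay above 1 and 16 included 1. Over all 9780 genes with as many UMIs, 13.3% lay below 1 and 13.4% above. The median log2 ratio was -0.51 over these members and -0.05 over all genes.

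Xaf1 had the lowest of these ratios, at 6.34 CPM in cycling and 15.9 CPM in non-cycling cells (0.399, 0.203 to 0.708). Oasl2 stood at 25.3 and 49.4 CPM (0.513, 0.375 to 0.686). Ifitm3 stood at 98.7 and 153 CPM (0.646, 0.554 to 0.750). The others below 1 were Mavs at 0.602, Ifi35 at 0.642, Irf3 at 0.695 and Ifi27 at 0.776. Ifi27l2a was the member above 1, at 129.9 CPM in cycling and 105.5 in non-cycling cells (1.23, 1.07 to 1.41). The cycling cells were deeper by their median, and the part of depth in these ratios was not tested.

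**Figure D4:**
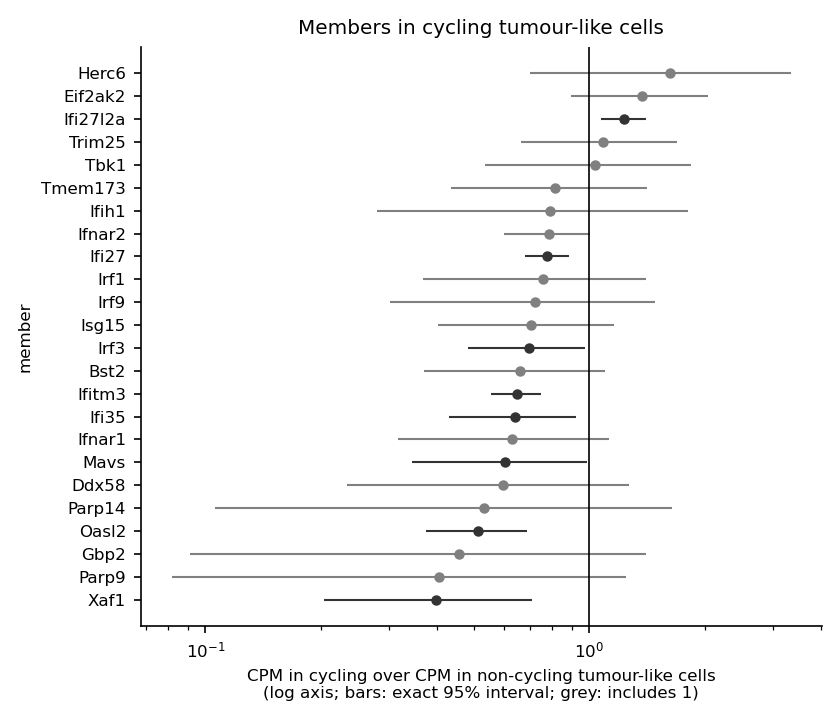
Ratio of the level in 242 cycling to that in 3145 non-cycling tumour-like cells (log axis) for the 24 members with at least 50 UMIs, with bars for the exact 95% interval. Grey points have intervals that include 1; black points to the left of the line at 1 are the 7 lower members, and Ifi27l2a is the black point to the right.

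Within macrophages, few members had enough UMIs to compare. Macrophages with at least 3 UMIs of Pf4, Arg1 and Saa3 together (787 cells) were set against those with at most 1 (224 cells). Of the 6 members with at least 50 UMIs, 1 lay above 1, 1 below, and 4 included 1, against 12.6% above and 13.4% below over all 2796 genes with as many UMIs. Ifitm3 stood at 2877 CPM in those with 3 or more and 2541 in those with at most 1, a ratio of 1.13 (1.05 to 1.22). Ifi27l2a stood at 693 and 1063 CPM, a ratio of 0.652 (0.574 to 0.741). Bst2, Ifi27, Ifnar2 and Rtp4 had intervals that included 1. The median log2 ratio of the 6 was 0.13, and that of all genes 0.02.

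Other cell classes were small, and their levels rest on few UMIs. Bst2, also a marker of plasmacytoid dendritic cells, reached 734 CPM (535.5 to 982) in 45 dendritic cells, from 45 UMIs. In the 10 dendritic cells with a UMI of Siglech, another plasmacytoid marker, Bst2 stood at 3800 CPM, and in the other 35 at 228 CPM, a ratio of 16.7 (8.39 to 35.4). This split was chosen with values known. Ifitm3 had 0 UMIs in those 10 cells, which allows up to 3 of their 8684 UMIs, and 68 UMIs (1292 CPM) in the 35. Over all dendritic cells Ifitm3 stood at 1109 CPM (861 to 1406), below the 2808 CPM of macrophages.

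Ifitm3 was also found at 1265 CPM (793 to 1915) in 6 fibroblast cells and 1165 CPM (602 to 2035) in 6 neutrophils. In 22 T cells it had 0 UMIs, which allows up to 164 CPM, while Ifi27l2a stood at 437 CPM (189 to 862) there, from 8 UMIs. Oasl2 stood at 287.5 CPM (93.4 to 671) in fibroblasts, from 5 UMIs, and at 0 UMIs in T cells, B and plasma cells, dendritic cells and neutrophils. Those zeros allow up to between 48.9 and 291 CPM, so a level like that of tumour-like cells could not be seen there. Isg15 stood at 96.9 CPM (44.3 to 184) in 66 erythroid barcodes, from 9 UMIs. The 68 barcodes positive for both gates had Ifitm3 at 667 CPM (590 to 752), between the levels of tumour-like cells and macrophages. Oasl2 stood at 39.4 CPM (22.5 to 64.0) there, an interval that included the tumour-like level. Not all members lay between the classes, with Irf3 at 36.9 CPM from 15 UMIs.

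**Figure D5:**
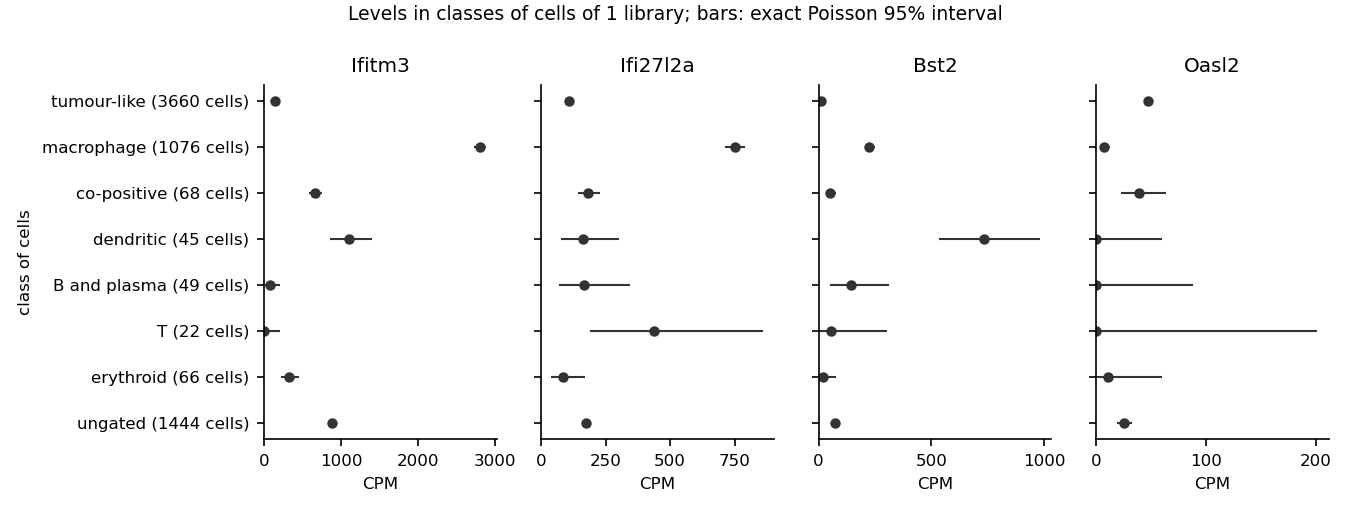
Levels in CPM of Ifitm3, Ifi27l2a, Bst2 and Oasl2 in 6 gated classes, the barcodes positive for both gates and the ungated cells of the library (fibroblasts and neutrophils, with 6 cells each, are not drawn), with points for the level and bars for the exact Poisson 95% interval. Macrophages have the highest Ifitm3 and Ifi27l2a points, dendritic cells the highest Bst2 point and tumour-like cells the highest Oasl2 point among the classes drawn; intervals of small classes are wide.

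A further list of 84 genes of interferon signaling and sensing, outside the members, was described in the same way. Of these, 83 had a row and 60 reached 5 CPM on average, and 37 were at least 2-fold higher in macrophages and 3 in tumour-like cells, against the 15.8% and 30.5% of all genes given above. The median log2 ratio of the 60 was 1.44. Many of the 37, with Tlr7, Fcgr1 and Slfn2 among them, had a tumour-like level under 5 CPM. Such genes passed through their macrophage level, so they had to differ. Fcgr1 was also one of the markers used to check the macrophage class. These counts and this median are therefore given as a description. The largest ratios were those of Tlr7, an endosomal RNA sensor, at 378 (101 to 3178) from 2 and 72 UMIs, of Fcgr1, an Fc receptor and macrophage marker, at 261 (124 to 658), and of Slfn2, a regulator of leukocyte quiescence, at 171 (105 to 298). Toward tumour-like cells, Ifitm1, a relative of Ifitm3, was 3.85-fold (2.59 to 5.97) higher, at 50.5 against 13.1 CPM. Rnaseh2a, part of the enzyme that removes ribonucleotides from DNA, was 3.17-fold (2.44 to 4.21) higher and Stat3 3.13-fold (2.498 to 3.985).

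Free RNA, released by lysed cells, adds UMIs of macrophage genes to tumour-like cells and the reverse. From 6 genes foreign to tumour-like cells it was estimated at 16.8% of their UMIs with the profile of droplets of 1 to 50 UMIs and 29.6% with that of 100 to 200 UMIs. In macrophages the estimates were 12.7% and 9.34%. Cd74, an antigen presentation gene, stood at 400.1 CPM in tumour-like cells, far above the other 5 foreign genes (3.65 to 53.0 CPM). Without Cd74, a choice made after the values were seen, the tumour-like estimates were 5.26% and 8.20%, and the free RNA levels given beside members use these. Those levels use the profile of droplets of 100 to 200 UMIs unless another is named. With Cd74 they would be higher in tumour-like cells. Of the 28 members with at least 50 UMIs, 26 stayed on the same side of a ratio of 1 under all 14 alternatives tried for single members, and Ddx58 and Eif2ak2, whose intervals included 1, did not.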

How the data were processed

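The values deposited by the authors for the ascites library are UMI counts per gene and barcode, 10x Genomics per the labels, with no selection of cells. The sources used here do not give the aligner, genome build or kit end, which limits any comparison of levels between genes. Levels of different genes enter the summed CPM, the shares of that sum and the choice to leave out Cd74, with this limit. The 8 columns of the bulk count table match no label and were not used, so the edgeR fit planned for deferiprone against vehicle could not be made. UMIs were summed per class and divided by the class total (CPM), with exact Poisson intervals. Ratios have exact conditional binomial intervals and shares exact Clopper-Pearson intervals, at 95%. A class at 0 was set to 3 UMIs as a bound. The summing and interval code was tested on simulated data. The named members are those with at least 50 UMIs, by role, and the others appear by UMI counts; of the further list, the 3 largest ratios in each direction. Members and lists were chosen with earlier results of these data known. Scrublet in scanpy 1.11.5 marked 89 cells (1.38%) as doublets, 32 tumour-like and 0 macrophage, which were kept, and left out as an alternative. Kept cells had 500 to 19947 UMIs (median 3300.0). Thinning to 1000 UMIs left out 50 tumour-like cells and 126 macrophages. Tools were Python 3.11.15, numpy 2.4.6, scipy 1.17.1, pandas 2.3.3 and matplotlib 3.10.9. Gene positions and overlaps are from GENCODE M21 on GRCm38, matched by gene ID for 46 members.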

Additional observations from a re-analysis of the deposited data

How the results depend on the processing

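No paired analysis was possible because the bulk columns match no sample label; the fits of deferiprone against vehicle with the replicate number as a block, with DESeq2, without a filter on low counts and without each replicate in turn were not run. The 13 members at least 2-fold higher in macrophages became 22 with a mean of at least 1 CPM and 3 with at least 20 CPM, as more or fewer members were counted. The 2 in tumour-like cells became 1 (Oasl2) with 0 UMIs of the other class, with ratios divided by the median ratio, with each cell weighted equally and with at least 20 CPM, and 4 where the interval had to exclude 1. Division by the median ratio shifted log2 ratios by 0.39 toward macrophages and gave 18 and 1 members. The median log2 ratio of 0.95 became 0.83 with at least 1000 UMIs per cell, 1.32 after division by the median ratio, 0.76 with totals free of haemoglobin, mitochondrial and ribosomal protein genes, 0.75 with equal weights, 0.81 thinned, 1.08 and 0.72 with at least 1 and 20 CPM, and 0.69 with 5 CPM added. The summed ratio of 7.28 became 9.56 after division by the median ratio, 6.91 with reduced totals, 6.995 with equal weights, 6.80 thinned, 9.08 and 10.2 after free RNA of droplets of 1 to 50 and 100 to 200 UMIs was subtracted, and, as alternatives chosen after seeing the data, 8.36 and 8.26 with Cd74 left out of that estimate and 3.08 without Ifitm3, Ifi27l2a and Ifi27. Of 392 ratios of single members over the alternatives, 30 moved beyond the counting interval of the main value, and 362 did not. The ratios of Ddx58 and Eif2ak2, whose main intervals included 1, crossed 1 under some alternatives, and those of the other 26 members did not. Irf1, Tmem173, Ifih1 and Ifnar1 fell below 2-fold in at least 1 setting. The cause of these shifts was not tested. The macrophage total of 1905866 UMIs limits the precision of every ratio.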
